A study of Mus musculus with 3 samples.

Results

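Gene deserts are long stretches of the genome in which no gene is annotated. Here they were defined by position alone, as autosomal intervals of 500 kb or more between neighbouring genes of any type in GENCODE M1. This is the annotation of the mouse assembly mm9 (NCBIM37). Of 25816 intervals between genes on the 19 autosomes, 452 were deserts, and 22671 intervals were shorter than 100 kb. The outermost 20 kb at each end of a desert were left out and the rest was cut into 10-kb bins, of which 34783 in 451 deserts had at least 10 CpG cytosines covered in all 3 libraries. The desert without such a bin lay on chromosome 8. Each desert is named below after the nearest protein-coding gene on either side, although the gene that ends it can be a small non-coding RNA or a pseudogene, so that the named gene can lie far beyond the end and neighbouring deserts can share a name.

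All values came from gDNA of E14 cells, a line of mouse embryonic stem cells (mESCs) grown on gelatin with 2i, LIF and serum and given no treatment. The DNA was sequenced by TAPSβ, which reads 5-methylcytosine (5mC), by CAPS, which reads 5-hydroxymethylcytosine (5hmC), and by PS, which reads 5-formylcytosine (5fC) together with 5-carboxycytosine (5caC). TAPSβ and CAPS also read 5fC and 5caC as modified, which the study ignored for TAPSβ because of their very low amounts. There was 1 library for each method and no replicate, so the comparisons below set classes of sequence within a library against each other, and the 95% intervals given with them cover counting error only. TAPSβ gave 511365019 base calls at CpG cytosines, CAPS 377288829 and PS 383591531, with a median of 13, 9 and 9 reads for a listed cytosine.

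DNA methyltransferases place 5mC on the cytosine of CpG dinucleotides, and most CpGs of mammalian genomes carry it. TET enzymes oxidize 5mC stepwise to 5hmC, 5fC and 5caC, and in mESCs 5hmC is known to be enriched at enhancers and in gene bodies, while CpG islands at active promoters lack 5mC. Deserts are typically poor in CpGs and GC, often replicate late in S phase, and those beside developmental regulators can hold enhancers that act on genes far away.

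The 452 deserts covered 385.6 Mb. Their median length was 724 kb, with quartiles of 583 and 965 kb, and 104 were longer than 1 Mb. The median desert had a GC content of 38.2% and 5.31 CpGs per kb. Both ends were a protein-coding gene in 85 deserts. Lengths ran on without a gap across the limit of 500 kb. The shortest deserts, Frk to Amd2, Fam188a to Pter and Gm16391 to Crim1, had lengths of 501.0, 502.0 and 502.9 kb and CAPS levels of 2.20%, 2.04% and 1.65%. The longest intervals just under the limit had lengths of 499.9, 499.7 and 498.4 kb and CAPS levels of 3.76%, 2.00% and 2.22%.

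The stretches of sequence in deserts that carried little 5mC are shown first, because the hypomethylated bins are described from them below. Each stretch is 300 bases of the plus strand of mm9 from the 1-kb window with the lowest TAPSβ level in the lowest bin of a named desert, and CpGs are in capitals. Within that window the 300 bases with the most CpGs were taken. The first is chr5:52506689-52506988 between Ppargc1a, a coactivator of mitochondrial genes, and Dhx15, a splicing helicase. The second is chr9:16306394-16306693 beside Fat3, which encodes an atypical cadherin. The third is chr15:67008261-67008560 between St3gal1, a sialyltransferase, and Zfat, a zinc finger gene. The fourth is chr16:5885350-5885649, in the desert that ends at Rbfox1, a splicing regulator, and 919.3 kb from that end by its bin. The fifth, chr3:34659001-34659300, lies downstream of Sox2, a transcription factor of pluripotency whose distal enhancers in mESCs are known to lie on that side. The sixth, chr12:111186538-111186837, lies in the imprinted Dlk1-Dio3 domain, between Rtl1, a gene derived from a retrotransposon, and Dio3, which encodes a thyroid hormone deiodinase.
Ppargc1a to Dhx15: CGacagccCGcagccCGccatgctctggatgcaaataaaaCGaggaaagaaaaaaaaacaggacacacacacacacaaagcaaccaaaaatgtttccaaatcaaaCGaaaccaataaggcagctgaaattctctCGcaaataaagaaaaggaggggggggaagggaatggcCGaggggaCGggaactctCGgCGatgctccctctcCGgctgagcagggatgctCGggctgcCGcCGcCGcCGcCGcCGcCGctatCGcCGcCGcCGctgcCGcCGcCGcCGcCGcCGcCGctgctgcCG
Fat3 to Gm5611: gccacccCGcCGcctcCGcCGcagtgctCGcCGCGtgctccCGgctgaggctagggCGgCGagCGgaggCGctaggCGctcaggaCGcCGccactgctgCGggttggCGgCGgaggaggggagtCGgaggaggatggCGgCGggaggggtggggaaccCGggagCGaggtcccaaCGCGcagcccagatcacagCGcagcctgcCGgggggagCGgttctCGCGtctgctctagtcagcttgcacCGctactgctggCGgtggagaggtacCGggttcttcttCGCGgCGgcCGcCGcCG
St3gal1 to Zfat: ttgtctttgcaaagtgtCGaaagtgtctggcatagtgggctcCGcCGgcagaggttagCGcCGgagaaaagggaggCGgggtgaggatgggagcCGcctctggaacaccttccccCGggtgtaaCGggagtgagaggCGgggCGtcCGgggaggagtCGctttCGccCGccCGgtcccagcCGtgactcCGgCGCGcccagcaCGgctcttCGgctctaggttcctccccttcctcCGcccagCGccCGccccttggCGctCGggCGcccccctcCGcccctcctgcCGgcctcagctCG
Fam86 to Rbfox1: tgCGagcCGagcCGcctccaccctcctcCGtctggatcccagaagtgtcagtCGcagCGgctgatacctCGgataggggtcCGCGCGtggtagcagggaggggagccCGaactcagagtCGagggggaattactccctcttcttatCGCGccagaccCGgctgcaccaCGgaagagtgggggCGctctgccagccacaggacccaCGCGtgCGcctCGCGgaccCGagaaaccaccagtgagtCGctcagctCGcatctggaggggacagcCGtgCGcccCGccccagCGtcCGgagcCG
Sox2 to Atp11b: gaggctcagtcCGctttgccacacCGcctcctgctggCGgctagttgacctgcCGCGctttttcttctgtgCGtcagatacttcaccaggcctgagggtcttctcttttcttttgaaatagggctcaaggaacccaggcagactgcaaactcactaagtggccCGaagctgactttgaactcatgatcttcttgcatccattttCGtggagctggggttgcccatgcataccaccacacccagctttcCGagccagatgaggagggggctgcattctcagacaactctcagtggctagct
Rtl1 to Dio3: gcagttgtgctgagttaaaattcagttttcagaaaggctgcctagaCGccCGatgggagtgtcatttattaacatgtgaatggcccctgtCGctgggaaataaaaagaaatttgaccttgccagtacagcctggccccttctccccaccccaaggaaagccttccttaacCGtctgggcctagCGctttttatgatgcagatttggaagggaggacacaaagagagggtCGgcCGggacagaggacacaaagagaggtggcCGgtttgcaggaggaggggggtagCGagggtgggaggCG
The first 4 stretches held 31, 39, 31 and 31 CpGs, whereas the Sox2 and Rtl1 to Dio3 stretches held 9 and 10 CpGs. The choice of the 300 bases raised these numbers. Their whole 1-kb windows held 157, 144, 138 and 150 CpG cytosines on both strands, and 25 and 32 for the last pair. Tested desert windows had a median of 14. The first 4 windows were thus dense in CpGs, although no gene of the annotation lies there. The TAPSβ levels of the stretches were 0% (0 of 855 calls, exact upper bound 0.431%) for Ppargc1a to Dhx15, 0.298% for Fat3, 0.103% for St3gal1 to Zfat, 1.02% for Fam86 to Rbfox1, 0% (0 of 307 calls, exact upper bound 1.19%) for Sox2 and 0.601% for Rtl1 to Dio3. All 6 were thus nearly free of 5mC. Except for the first, whose triplet repeats include words found 63 times, every 25-base word in them occurred once in the genome.

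A further pair of stretches, cut from their windows in the same way, is shown for contrast. The stretch between Pxmp3, a peroxisome assembly gene, and 1700008P02Rik at chr3:6302533-6302832 had a low TAPSβ level in a repeated sequence. The other, at chr14:109904162-109904461, is the lowest window of the desert with the lowest CAPS level, which lies between Slitrk1 and Slitrk6, genes of transmembrane proteins of neurons.
Pxmp3 to 1700008P02Rik: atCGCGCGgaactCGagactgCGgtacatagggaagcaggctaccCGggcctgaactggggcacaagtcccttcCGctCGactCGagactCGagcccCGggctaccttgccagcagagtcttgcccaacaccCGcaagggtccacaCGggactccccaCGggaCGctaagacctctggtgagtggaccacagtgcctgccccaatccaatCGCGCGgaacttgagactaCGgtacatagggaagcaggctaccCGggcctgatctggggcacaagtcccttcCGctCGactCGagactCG
Slitrk1 to Slitrk6: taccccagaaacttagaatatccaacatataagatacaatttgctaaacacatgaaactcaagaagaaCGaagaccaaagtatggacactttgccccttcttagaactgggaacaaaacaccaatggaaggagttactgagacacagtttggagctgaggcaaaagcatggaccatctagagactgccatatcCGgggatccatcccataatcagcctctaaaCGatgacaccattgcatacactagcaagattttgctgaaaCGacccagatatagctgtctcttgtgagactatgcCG
The 25-base words of the Pxmp3 stretch occurred 2823 times in the median, counting both strands of chromosomes 1 to 19, X and Y, and 294 of its 300 bases were identical to the low window between Epha7 and Map3k7 on chromosome 4. The Slitrk1 stretch held 5 CpGs, its words occurred 136 times in the median, and its TAPSβ level was 14.3% from 84 calls. The part that read placement among such copies had in these levels was not tested.

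5mC in the deserts was slightly above, and 5hmC clearly below, the levels of intergenic sequence close to genes. Over all desert bins the TAPSβ level was 66.6%, the CAPS level 2.11% and the PS level 0.238%. The 28323 bins of the intervals under 100 kb, called short-interval bins here, had levels of 59.9%, 3.40% and 0.299%. The 20 kb next to genes were left out of deserts but kept in short intervals. The shares of low bins and windows and the CTCF motif counts given below were not recomputed without that sequence. Desert bins held a median of 98 CpG cytosines on both strands together and short-interval bins 162, so the short-interval levels were weighted to the CpG numbers of the desert bins, in strata of 40 cytosines.

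At equal CpG number the TAPSβ level was 66.6% in deserts and 64.0% in short intervals, a ratio of 1.04 (95% interval 1.040 to 1.042). The CAPS level was 2.11% against 2.80%, a ratio of 0.752 (0.750 to 0.755), and the PS level was 0.238% against 0.375%, a ratio of 0.636 (0.629 to 0.643). PS levels of this size are close to the false-positive rate of the method on unmodified cytosines, so the values are given as PS levels and not as amounts of its target modifications. The CAPS difference kept its direction when the sparser CpGs of deserts were taken into account and was somewhat smaller than the unweighted ratio of 0.621. Matching on GC content as well as CpG number, an alternative chosen after seeing the data, brought the CAPS ratio to 0.827, and matching on the TAPSβ level of the bin as well as CpG number brought it to 0.811. Deserts were thus lower in 5hmC than short intervals under each of these weightings, by amounts that depended on the weighting.

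CAPS levels also include false positives. With the background rate of 0.72%, which is that of unmodified control DNA and is also used for calling below, taken off both levels, the ratio was 0.667. The study measured lower rates on its methylated control DNA, so values with this rate taken off depend on that choice. With a lower rate the ratio would lie closer to the ratio as counted. Taking the background rate off was chosen after seeing the data. The CAPS levels in the text are as counted.

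The autosomes served as a check of these ratios, although they share the library. CAPS was lower in deserts on 19 of 19 autosomes, with ratios from 0.508 on chromosome 12 to 0.856 on chromosome 13. TAPSβ was higher in deserts on 18 of 19, with 0.998 on chromosome 16 and 1.11 on chromosome 12 as the extremes. PS was lower on 16 of 19, from 0.181 on chromosome 12 to 1.27 on chromosome 6. On chromosome 12 the matched PS level of the short intervals was 1.84%, against 0.333% in deserts, and the short-interval CAPS level there was 4.17%, so this chromosome stood apart through its short intervals.

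**Figure D1:**
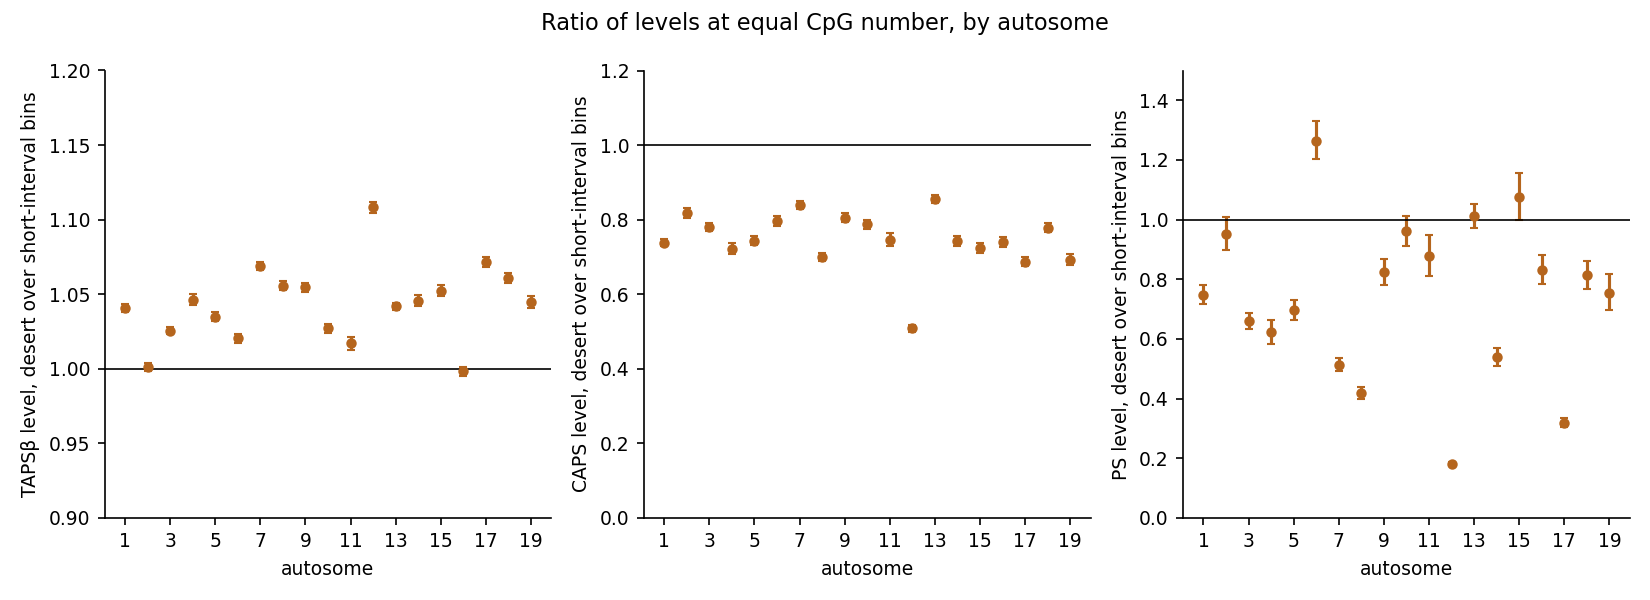
Ratio of the level in desert bins to that in short-interval bins at equal CpG number on each autosome, for TAPSβ (axis from 0.9), CAPS and PS. Points are ratios, bars 95% counting intervals and the line marks equal levels. All CAPS ratios lie below 1, from 0.508 to 0.856, whereas PS ratios lie on both sides.

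The PS difference depended strongly on cytosines with very high PS values. Positions covered by at least 5 PS reads of which 20% or more were modified, called variant-like because a sequence variant read as T would give such a value in every method, were left out in an alternative. The PS level then fell to 0.176% in deserts and 0.201% in matched short intervals, and the ratio rose from 0.636 to 0.877. These positions were picked by their PS values alone, without their TAPSβ and CAPS reads, so the PS levels had to fall. Any true 5fC or 5caC at such positions was left out with them. The CAPS ratio under the same alternative was 0.780 and the TAPSβ ratio 1.04, so these moved far less. With bins of at least 80% covered cytosines and with variant-like and high-coverage cytosines left out together, chosen after seeing the data, CAPS was still lower on 19 of 19 autosomes, with ratios from 0.704 to 0.875.

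The methods differed in how the gap between deserts and short intervals changed with CpG number. At 40 to 119 cytosines per bin TAPSβ differed little, with 66.7% in deserts and 66.2% in short intervals at 80 to 119 cytosines. The few bins with under 40 cytosines, 75 in deserts and 30 in short intervals, had 62.6% and 60.2%. At 240 to 279 cytosines it was 65.5% in deserts and 55.3% in short intervals, and from 400 cytosines 59.9% and 33.2%. CpG-rich bins of short intervals, which could lie next to genes, were thus much less methylated than CpG-rich bins of deserts. CAPS was lower in deserts in every stratum, with 1.84% against 2.43% at 80 to 119 cytosines and 2.97% against 4.05% at 240 to 279. Pooled PS was lower in deserts up to 159 cytosines and higher from 160 on, with 0.288% against 0.254% at 160 to 199. The median bin, however, was lower in deserts from 160 to 279 cytosines, with 0.162% against 0.171% at 160 to 199. From 280 cytosines on it took either direction. The PS levels of the strata were not recomputed without variant-like cytosines.

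**Figure D2:**
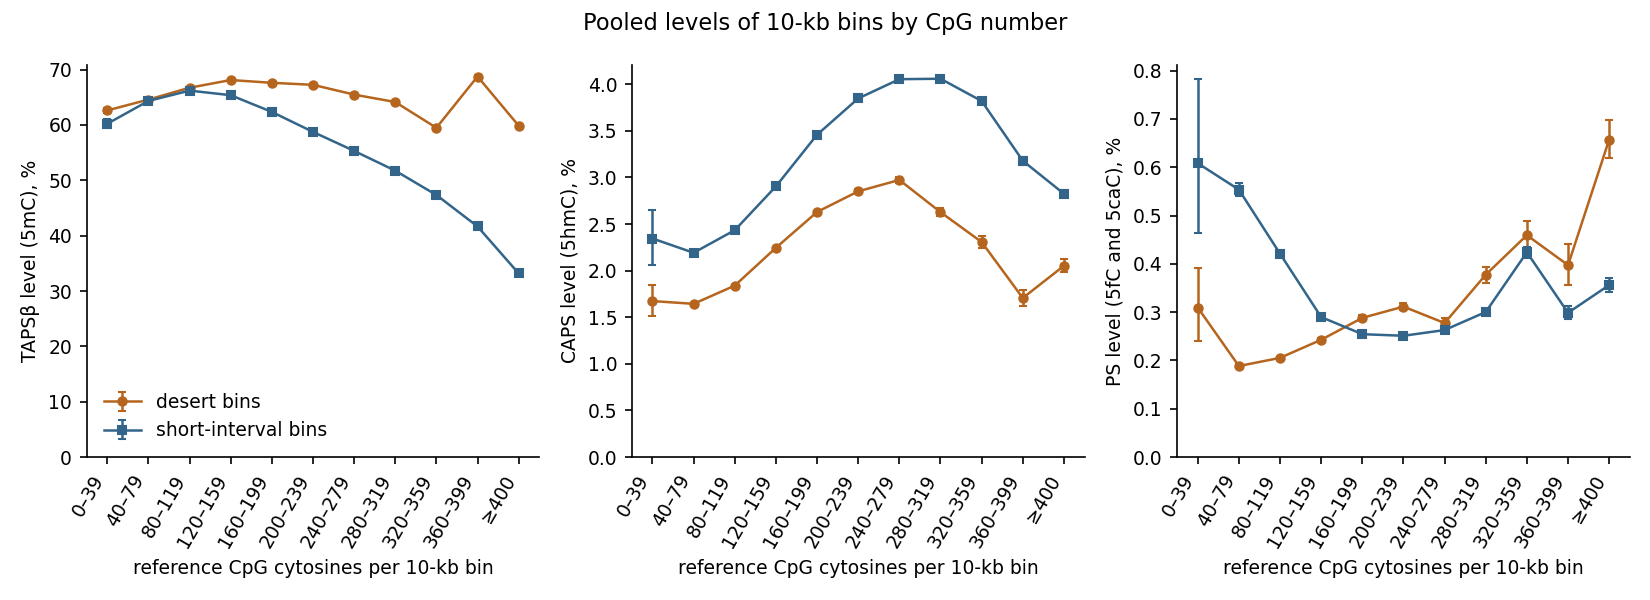
Pooled TAPSβ, CAPS and PS levels in percent (vertical axes, each from 0) of desert bins (circles) and short-interval bins (squares), against the number of reference CpG cytosines in the 10-kb bin. Bars are exact 95% binomial intervals. TAPSβ is higher in deserts in every stratum from 120 cytosines (68.1% against 65.4% at 120 to 159), CAPS is lower in deserts throughout (1.84% against 2.43% at 80 to 119), and the PS curves cross.

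Single cytosines called in CAPS gave a larger difference than the levels. A cytosine with at least 5 reads was called where its CAPS reads exceeded a background rate of 0.72% in a one-sided exact binomial test, with Benjamini-Hochberg adjusted p under 0.05 over all tested cytosines. Of the 36060655 cytosines tested, 1.64% were called. In desert bins 23283 of 3247259 were called, which is 0.717%, below the share over all cytosines, and in short-interval bins 1.96%. At equal CpG number the short-interval share was 1.41%, and the ratio of shares was 0.508 (0.499 to 0.516), lower in deserts on 19 of 19 autosomes. When cytosines were matched on their own CAPS coverage, and not on CpG number, the short-interval share was 1.88% and the ratio 0.382. The share to set beside this is the unmatched 1.96%. The median depth of 9 reads limits what can be called, since 3 modified reads were needed at that depth.

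CAPS fell with the length of the interval, and within deserts it was lowest far from genes. At the CpG number of desert bins, intervals under 50 kb had a CAPS level of 2.89%, those of 50 to 100 kb 2.73%, of 100 to 200 kb 2.55%, of 200 to 500 kb 2.33%, of 500 kb to 1 Mb 2.17% and of 1 Mb or more 2.00%. The decline was monotonic and began well below the length at which an interval counted as a desert. Leaving out the 20 kb next to genes in all length classes gave 2.72% for intervals under 100 kb and 1.99% for those of 1 Mb or more. Inside deserts, ends included, CAPS was 2.24% within 20 kb of a gene, 2.17% at 100 to 200 kb and 1.82% at 500 kb or more, with 2.16% at 50 to 100 kb slightly out of order. The last class holds bins of 99 deserts, which are necessarily long. Within deserts of 1 Mb or more alone, chosen after seeing the data, CAPS was 2.22% at 20 to 50 kb, 2.06% at 50 to 100 kb, 2.12% at 100 to 200 kb, 1.96% at 200 to 500 kb and 1.82% at 500 kb or more. TAPSβ moved little by comparison, from 65.9% within 20 kb to 66.9% at 100 to 200 kb and 66.1% at 500 kb or more, and PS showed no steady course with distance, between 0.221% and 0.255%.

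**Figure D3:**
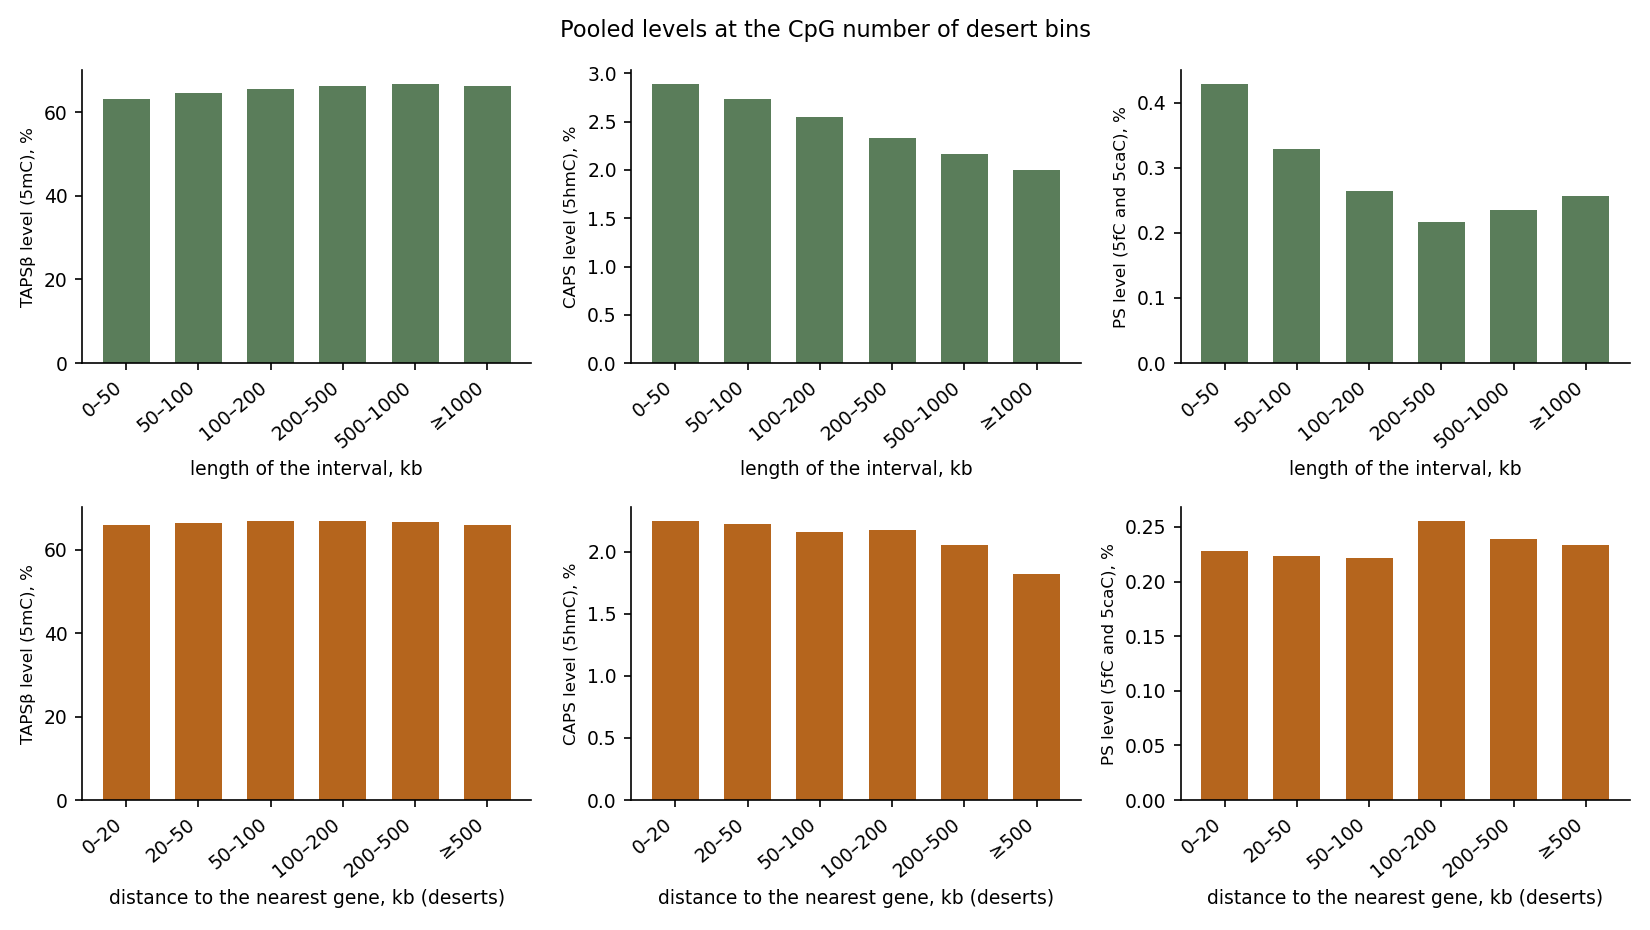
Pooled TAPSβ, CAPS and PS levels in percent, weighted to the CpG number of desert bins, by length of the interval (top) and, within deserts, by distance to the nearest gene (bottom). Bars are single pooled values from 1 library and start at 0. CAPS declines from 2.89% to 2.00% with length and from 2.24% to 1.82% with distance.

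Single deserts differed from each other far beyond counting error. CAPS ranged from 1.35% to 5.14% over the 451 deserts, with a median of 1.93% and an SD of 0.534 percentage points, where counting alone would give 0.061. TAPSβ ranged from 42.4% to 73.5% with a median of 66.9%, and PS from 0.0998% to 3.56% with a median of 0.197%. Each desert's CAPS level was nearly the same on either strand, with a Pearson correlation of 0.963 between plus-strand and minus-strand levels over 451 deserts, which share the library. The interval of a desert's CAPS level lay below the short-interval level of 2.80% in 397 deserts and above it in 31. Set against short-interval bins at its own CpG numbers, CAPS was lower in 430 deserts and higher in 21, with a median ratio of 0.723.

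Deserts with more CpGs and a higher GC content had higher CAPS levels. As a description over 451 deserts of 1 library, CAPS correlated with CpGs per kb (Pearson 0.702, Spearman 0.631) and with GC content (0.732 and 0.705), and less with TAPSβ (0.0317 and 0.297). Desert length went weakly the other way (-0.153 and -0.278). These measures move together with each other, and their separate parts in the CAPS level were not tested.

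**Figure D4:**
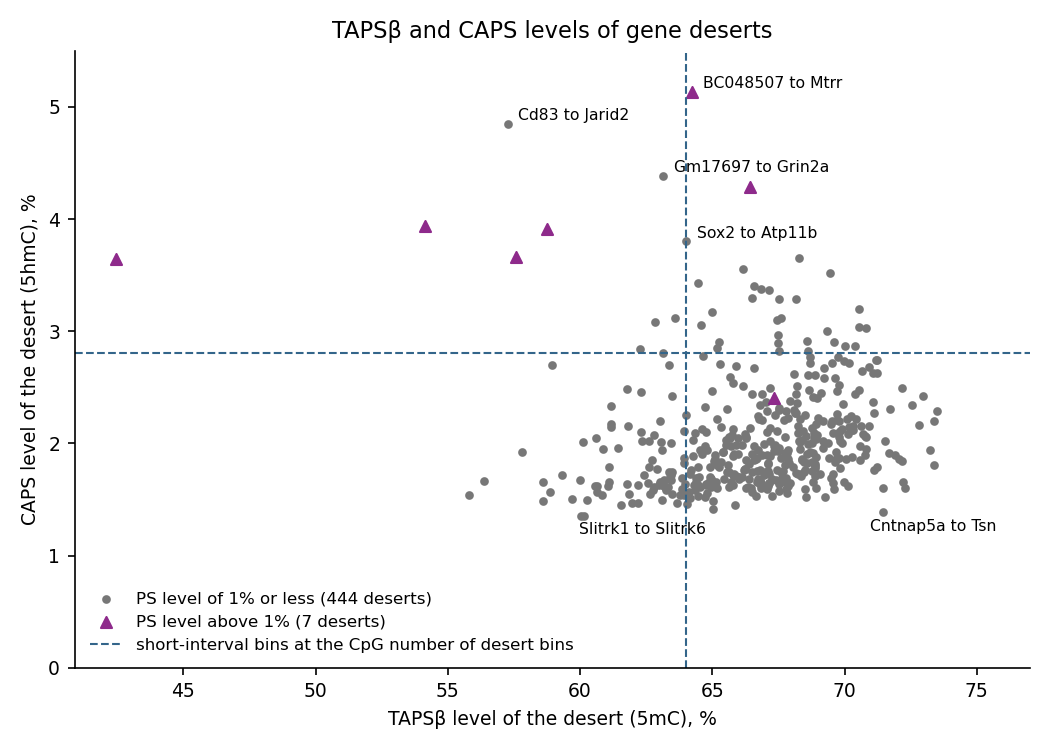
TAPSβ level (horizontal, %) and CAPS level (vertical, %) of the 451 deserts with usable bins, 1 point each. Triangles mark the 7 deserts with a PS level above 1%, and dashed lines mark the levels of short-interval bins at the CpG number of desert bins, 64.0% and 2.80%. Most deserts lie below 2.80% CAPS, and the deserts named Cd83 to Jarid2, Gm17697 to Grin2a and Sox2 to Atp11b stand above it.

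Among the 446 deserts with at least 20 usable bins and 2000 CAPS calls, Slitrk1 to Slitrk6 (chr14:109313457-110282270) was lowest with 1.35% (95% interval 1.26 to 1.45%) over 92 bins. Its level would be 0.633% if the rate of unmodified DNA held at all its cytosines, and higher with a lower rate. As counted, its bins ranged from 0.450% to 2.59%, and 83 of them were under 2%. Of its 6531 tested cytosines 13 were called, or 0.199%, against 0.717% over all desert bins. Gm17316 to Cdh11 (chr8:104063609-105011098), which ends 145.8 kb before the cadherin gene Cdh11, followed with 1.35% (1.27 to 1.44%), so the lowest pair could not be told apart. The next were Cntnap5a to Tsn (chr1:119433042-120195093) with 1.39% (1.32 to 1.46%), Nudt12 to Efna5 (chr17:60625593-61399073) with 1.42% (1.33 to 1.52%) and Gm11161 to Gm597 (chr1:27286772-28637342) with 1.45% (1.37 to 1.53%). Cntnap5a encodes a neurexin family protein, Tsn the nucleic acid-binding protein translin, and Efna5, which lies 1554 kb beyond the end of its desert, an ephrin ligand. The intervals of these 5 deserts overlap those of their neighbours in this order. Without variant-like cytosines Slitrk1 to Slitrk6 was again lowest with 1.340%, followed by Cntnap5a to Tsn with 1.345% and Gm17316 to Cdh11 with 1.350%. Bche to Zbbx with 1.438% then stood among the 5 lowest in place of Gm11161 to Gm597 with 1.446%.

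The deserts with the lowest CAPS levels were not alike in 5mC or CpG number. TAPSβ was 60.2% in Slitrk1 to Slitrk6 and 60.1% in Gm17316 to Cdh11, below the desert median, but 71.5% in Cntnap5a to Tsn. The last of these had 6.78 CpGs per kb, more than the median desert, and its CAPS level was 0.474 times that of short-interval bins at its own CpG numbers, the lowest such ratio, or 0.303 with the background rate taken off both levels. A desert directly beside it, also between Cntnap5a and Tsn and separated from it by a single U1 small nuclear RNA gene, had a CAPS level of 2.08% (1.97 to 2.19%) and a TAPSβ level of 62.8%. The neighbouring deserts thus differed beyond counting error in both modifications and in opposite directions.

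Several of the highest CAPS levels lay in deserts with high PS values and poor coverage. BC048507 to Mtrr on chromosome 13 had the highest CAPS level, 5.14%, but its PS level was 3.56%, 41.1% of its CpG cytosines were covered, and CAPS was 2.61% without variant-like cytosines. Gm9257 to Gm10479 on chromosome 12 had 3.94% CAPS and 2.32% PS, and Klra1 to Gm5581, at the natural killer cell receptor genes of chromosome 6, had 3.91% and 2.99%. Without variant-like cytosines the CAPS levels of these were 2.70% and 1.91%. In all, 7 deserts had a PS level above 1%, and between 27.4% and 94.2% of their CpG cytosines were covered. The study's methods name artifact-prone regions and known E14 variants as left out of its later steps, and whether the deposited counts already lack these sites is not stated in the sources used here. What part copied sequence, strain variants, or 5fC and 5caC read by both CAPS and PS had in these values was not tested.

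High CAPS levels without high PS were found beside Jarid2, Grin2a, Sox2 and Cited2. Cd83 to Jarid2 (chr13:44220549-44824842) had 4.85% (4.73 to 4.98%) with a PS level of 0.198% and 4.85% also without variant-like cytosines. Jarid2 encodes a component of the Polycomb repressive complex PRC2, which acts in mESCs. Gm17697 to Grin2a (chr16:8996460-9577802), beside the gene of an NMDA receptor subunit, had 4.39% (4.24 to 4.54%), and Sox2 to Atp11b (chr3:34581542-35634294) had 3.80% (3.71 to 3.90%). Nmbr to Cited2 (chr10:16836707-17443033), which ends at the gene of a CBP/p300-binding coregulator, had 3.65% (3.52 to 3.80%). These 4 deserts had more CpGs than the median desert, and short-interval bins at their own CpG numbers had CAPS levels of 3.86%, 3.08%, 3.51% and 2.99%. The ratios of desert to short-interval level were thus 1.26, 1.42, 1.08 and 1.22.

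A neighbour of the last desert again differed from it. The stretch of 2132 kb on the Nmbr side, separated by 1 U6 small nuclear RNA gene, had a CAPS level of 1.85% (1.79 to 1.92%) with 4.98 CpGs per kb, against 7.07 in the desert next to Cited2. TAPSβ was 66.3% (66.1 to 66.5%) on the Nmbr side and 68.3% (68.0 to 68.6%) next to Cited2, so both modifications were higher next to Cited2 beyond counting error. The other deserts that followed in CAPS without variant-like cytosines were Gadd45g to Diras2 with 3.55%, Pabpc6 to Qk with 3.51%, Gm4868 to Tmem132c with 3.41%, Sall3 to Galr1 with 3.39%, Ncam1 to Rpl10-ps3 with 3.38% and Arglu1 to Fam155a with 3.36%. As counted, their ratios to short-interval bins at equal CpG number were 0.975, 1.02, 1.05, 0.921, 1.14 and 0.905 in the same order, so 3 of these 6 were below 1. Gadd45g encodes a stress-response protein, Qk an RNA-binding protein, Sall3 a zinc finger transcription factor and Ncam1 a neural adhesion molecule.

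Within these deserts 5hmC was spread over many bins. In Cd83 to Jarid2 the bins ranged from 1.66% to 8.83% CAPS, with quartiles of 3.97% and 5.80%, and 22 of 55 bins were above 5%. Its highest bin lay 34.8 kb from the nearest gene, had 51.3% TAPSβ, and 12 of its 151 tested cytosines were called. Over that whole desert 3.17% of tested cytosines were called. In Gm17697 to Grin2a 19 of 53 bins were above 5%, and the highest bin of the 4 deserts plotted here, chr16:9170001-9180000, reached 10.3% (8.50 to 12.4%) from 977 calls. In Sox2 to Atp11b 21 of 100 bins were above 5% and 18 were under 2%. In Slitrk1 to Slitrk6 no bin was above 5% and the highest, 2.59% (1.49 to 4.17%), rested on 618 calls.

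**Figure D5:**
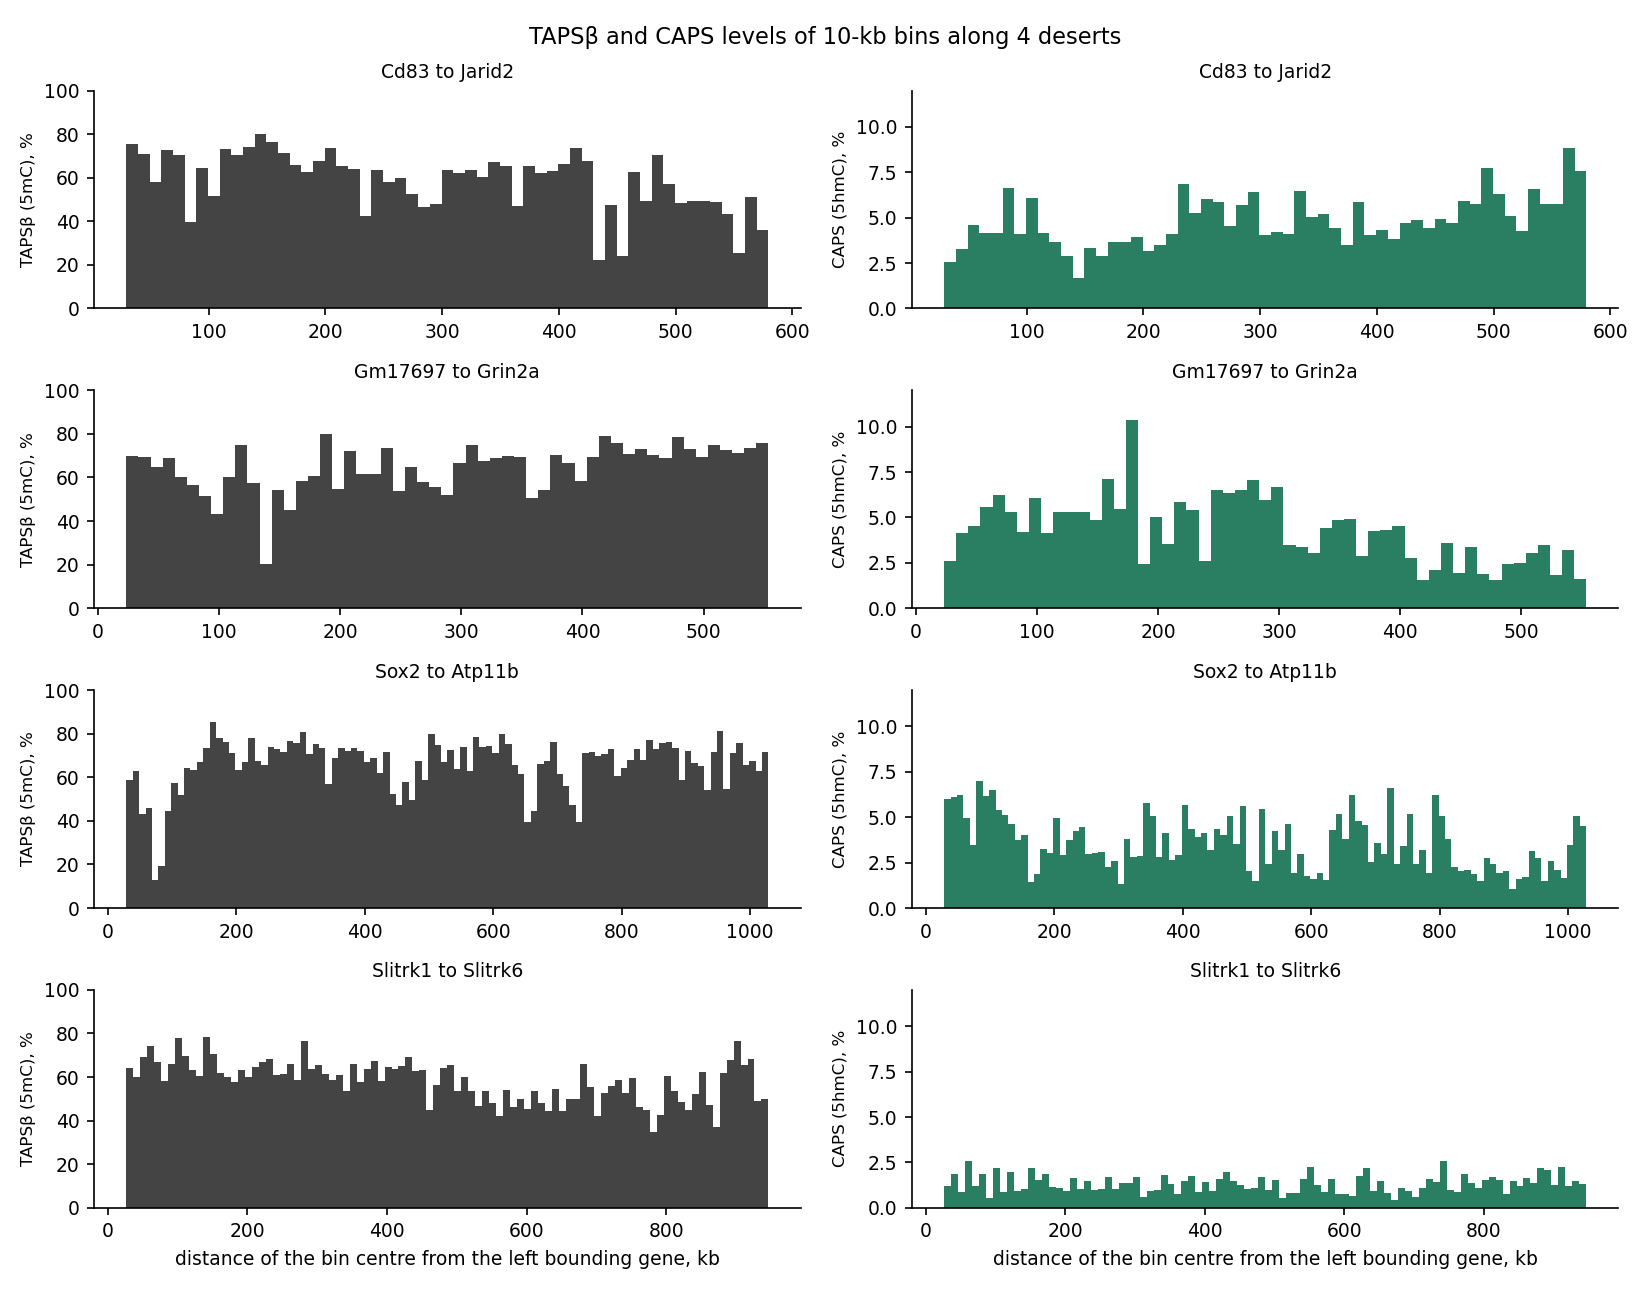
TAPSβ level (left, 0 to 100%) and CAPS level (right, 0 to 12%) of the 10-kb bins along 4 deserts, against the distance of the bin from the gene that ends the desert on the left, in kb. CAPS is above 5% in 22 of 55 bins of Cd83 to Jarid2 and in none of 92 in Slitrk1 to Slitrk6, and the pair of adjacent bins with low TAPSβ in Sox2 to Atp11b lies near its left end.

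Of the 5 longest deserts, 4 had CAPS levels below the desert median. Gm5591 to Gm16387 on chromosome 7 spans 7199 kb, of which 7000 kb are a run of unknown bases. Only 15 of its bins could be used, with a CAPS level of 2.31% and a PS level of 0.935%. Without variant-like cytosines its CAPS level was 1.69%, below the desert median of 1.88% under that alternative. The next, Olfm4 to Pcdh17 with 2362 kb, which begins at Olfm4 and whose other end is 2059 kb short of the protocadherin gene Pcdh17, had 1.75% over 231 bins. Kcnt2 to Cdc73 had 1.68%, D3Ertd751e to Pcdh10 1.63% and the longer of the Nmbr to Cited2 deserts 1.85%. The called share of these 4 lay between 0.341% and 0.487%, below the 0.717% over all desert bins.

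Bins with low 5mC were rare in deserts. A bin was counted as low where its TAPSβ level was under 30% from at least 100 calls, which was true of 4.69% of all autosomal bins, 2.37% of short-interval bins and 0.193% of desert bins, or 67 of 34748. At the CpG number of the desert bins the short-interval share was 0.780%, a ratio of 0.247 (0.189 to 0.323). This interval counts bins rather than base calls and treats them as independent, although some deserts held several low bins. CpG number thus moved with much of the unmatched gap. Short-interval bins, unlike desert bins, could lie next to genes, and their share without such bins was not computed. The low bins lay in 54 deserts, 46 of which had 1. The most, 6, were in Gm7367 to A230006K03Rik on chromosome 7, the desert with the lowest TAPSβ level (42.4%), where PS was 2.50% and between 8.17% and 75.7% of the CpG cytosines of these bins were covered. Over all 67, low bins held a median of 240 CpG cytosines, against 98 in all desert bins. At least 80% of the CpG cytosines were covered in 31 of the 67, in 24 deserts. The other 36 rest on part of their sequence, and 11 of them held at least 20 of the 25-base words of the repeated Pxmp3 stretch, while no low bin with 80% or more covered held them.

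Among the low bins of the named deserts with most of their cytosines covered, those from which the first 4 sequences above were taken are given first, and all had more CpG cytosines than the desert median of 98. In Ppargc1a to Dhx15 the bin chr5:52500001-52510000 had 728 CpG cytosines, a TAPSβ level of 11.2% (10.6 to 11.8%) and a CAPS level of 1.39% (1.09 to 1.74%), in a desert with 65.8% TAPSβ. In Fat3 to Gm5611 the bin chr9:16300001-16310000 had 430 CpG cytosines, 11.8% TAPSβ and 1.60% CAPS. In St3gal1 to Zfat the bin chr15:67000001-67010000 had 454, 18.5% and 2.00%, and in Fam86 to Rbfox1 the bin chr16:5880001-5890000, which lay 555.8 kb from the nearest gene, had 254, 18.1% and 1.81%. Their deserts had CAPS levels of 2.07%, 2.02%, 1.92% and 2.33%, so that only the Ppargc1a bin was below its desert by more than counting error.

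Low bins of the deserts beside Sox2, Jarid2, Grin2a and Dio3 had higher CAPS levels than those just named, but most of them did not differ from their own deserts beyond counting error. The neighbouring bins chr3:34650001-34660000 and chr3:34660001-34670000, 68.5 and 78.5 kb from the end of Sox2ot, a long non-coding RNA gene that overlaps Sox2, had TAPSβ levels of 13.1% and 19.4%. Their CAPS levels were 3.46% (2.80 to 4.22%) and 7.01% (5.99 to 8.14%), the second being the highest bin of that desert. In Cd83 to Jarid2 the 3 low bins had TAPSβ levels of 22.4%, 24.1% and 25.6% and CAPS levels of 4.89%, 4.94% and 5.77%. The low bin of Gm17697 to Grin2a had 20.3% and 5.27%. Rtl1 to Dio3 had 2 low bins, chr12:111180001-111190000 with 18.8% TAPSβ and 3.28% CAPS and chr12:111420001-111430000 with 26.0% and 3.78%. The CAPS levels of these deserts were 3.80%, 4.85%, 4.39% and 3.17%, in the order named. The CAPS interval of a low bin lay above its own desert in the second Sox2 bin, and, by narrow margins, in the Jarid2 bin with 5.77% (4.87 to 6.79%) and the second Rtl1 to Dio3 bin (3.19 to 4.46%), and it included the desert level in the others. The second Rtl1 to Dio3 bin held 458 CpG cytosines and the others between 186 and 285.

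Other deserts with a very low bin had limits of coverage or copy number. The lowest bins of all were in Gm9257 to Gm10479 and Gm3944 to Gm5784, neighbours on chromosome 12, with TAPSβ levels of 10.7% and 11.1%. Their low windows shared 21 words of 25 bases, and the words of the first occurred 12 times in the genome in the median. Pxmp3 to 1700008P02Rik (14.4%), Cdh2 to Dsc3 (15.2%), Nr2f1 to Arrdc3 (16.7%) and Epha7 to Map3k7 (18.5%) had 72.1%, 8.80%, 14.7% and 37.4% of the CpG cytosines of the bin covered. Cdh2 and Dsc3 encode a cadherin and a desmosomal cadherin, Nr2f1 a nuclear receptor and Epha7 an ephrin receptor.

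At the scale of 1 kb, short hypomethylated windows were found in most deserts. Of 155013 desert windows with enough covered cytosines, 1138 had a TAPSβ level under 20%, which is 0.734%, against 3.88% of 191240 windows of short-interval bins. These shares were not matched on CpG number, and the tested windows had medians of 14 and 18 CpG cytosines. The low desert windows lay in 355 of 451 deserts, with a median of 2 where there was any. They were most frequent in Cd83 to Jarid2 with 32 and Sox2 to Atp11b with 27. Pooled over the low desert windows, TAPSβ was 10.1% and CAPS 3.60% (3.53 to 3.67%), whereas all tested desert windows had 67.7% and 2.29%. Windows starting 2 and 3 kb to either side that were not themselves low had 64.3% TAPSβ and 3.71% CAPS (3.65 to 3.77%). The TAPSβ contrast thus follows in part from how both sets were chosen. The intervals of the CAPS levels inside low windows and in their surroundings overlapped narrowly, which does not show that the levels are equal. Low windows had a median of 32 CpG cytosines against 14 in all tested windows, and the part of CpG number in the higher CAPS levels was not tested. In short intervals the low windows had 3.40% and their surroundings 4.91%.

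Matches to the consensus motif of CTCF, the factor that bounds chromatin loops, were searched on both strands as a feature defined by sequence alone. Desert bins held 229 matches, or 0.658 per Mb, and short-interval bins 1145, or 4.04 per Mb. These densities were not matched on CpG number or GC content. Within 100 bp of the desert matches TAPSβ was 18.03% (17.4 to 18.7%) and at 800 to 1000 bp 61.98% (61.3 to 62.6%). CAPS was 3.86% (3.49 to 4.26%) and 2.78% (2.53 to 3.06%) at the same distances. In short intervals the CAPS level was 3.18% within 100 bp and 3.42% at 800 to 1000 bp, so the level did not rise next to the match there. The intervals of these levels just overlapped, which does not show that they are equal. The share of called cytosines was higher next to the match in short intervals, with 2.17% (145 of 6670) against 1.81% (161 of 8900). In deserts 17 of 896 and 19 of 1459 tested cytosines were called at the same distances. Level and called share thus went in opposite directions in short intervals, and their difference was not tested. A match is a description of the sequence and does not show that CTCF was bound.

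Deserts were also grouped by the symbols of the nearest coding genes, at whatever distance. The 45 deserts beside transcription factor genes had a median CAPS level of 2.17% (quartiles 2.03% and 2.71%) and 6.81 CpGs per kb. The 109 beside genes of cell adhesion and synapse organizers had 1.76% (1.62% and 1.96%) and 5.04 CpGs per kb, and the 26 of the ion channel set 1.93%. Each set is a list of symbols and not a whole class of genes. Grin2a, for example, is in the ion channel set. The 2 beside olfactory receptor genes had 2.08%, and the 271 usable deserts in no group had 1.96%, close to the median of all. Median TAPSβ lay between 66.8% and 67.2% in these sets other than the olfactory one, which had 66.1%. CpG density moved with CAPS across the groups, and its part in the difference was not tested.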

How the data were processed

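Genomic DNA of E14 mESCs was sequenced in 1 library for each of TAPSβ, CAPS and PS. Per the submitters' processing notes, reads were trimmed with Trim Galore 0.3.1, mapped to mm9 with BWA 0.7.12 and cleared of duplicates with Picard 2.3.0, and asTair was then used by the authors for modification calling. Listed for every CpG cytosine, the authors deposited counts of modified and unmodified reads, without normalization, and the fraction of modified reads, which was not used beyond a check against the counts.

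The deposited counts were summed over the cytosines of 10-kb bins with at least 10 covered cytosines, and levels are modified over all base calls with exact (Clopper-Pearson) 95% intervals. Short-interval levels were weighted to desert base calls across strata of 40 reference CpG cytosines, with those from 400 pooled, and ratios carry log-scale counting intervals. Fragment size, read mapping in copied sequence and the base calls of 1 read at several CpGs can affect these values and are not in the intervals. Without replicates no test between classes was made. Calls in CAPS used a one-sided exact binomial test with Benjamini-Hochberg adjustment. The matching and the calling were tested on simulated counts.

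The members, lists and rules were chosen with earlier results of these data known. The deserts named were the 5 longest, the 5 lowest and 5 highest in CAPS (with at least 20 bins and 2000 calls), the 12 with the lowest bins in TAPSβ and those next to the length limit. The other deserts named, the values per neighbouring desert and the counts of repeated words were chosen after their values were seen. Python 3.11.15, numpy 2.4.6, pandas 2.3.3, scipy 1.17.1 and matplotlib 3.10.9 were used.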

Additional observations from a re-analysis of the deposited data

How the results depend on the processing

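The direction of the difference between desert and short-interval bins was the same under each of the alternatives run, for TAPSβ (15), CAPS (17), PS (16) and the share of called cytosines (7). Their size was not. The ratios were as follows, with 1.04 for TAPSβ, 0.752 for CAPS and 0.636 for PS as reported. Without matching on CpG number they were 1.11, 0.621 and 0.797, and averaging the levels of single cytosines gave 1.035, 0.769 and 0.752. With strata of 20 cytosines CAPS was 0.757 and PS 0.625. Without variant-like cytosines CAPS was 0.780 and PS 0.877, and without high-coverage cytosines they were 0.764 and 0.712 with TAPSβ at 1.0396. A desert length of 1 Mb gave 1.02, 0.714 and 0.577, intervals between protein-coding genes only 1.05, 0.771 and 0.704, and short-interval bins 20 kb or more from a gene 1.03, 0.774 and 0.702. Leaving out deserts with long runs of unknown bases gave 1.0402 for TAPSβ and 0.613 for PS. Matching on CpG number and TAPSβ level gave 0.811 for CAPS and 0.680 for PS.

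Alternatives chosen after seeing the data were bins with 80% of cytosines covered (1.038, 0.767 and 0.668), the same bins without variant-like and high-coverage cytosines (1.037, 0.793 and 0.913) and matching on CpG number and GC content (1.033, 0.827 and 0.607). Taking the background rate off both levels gave 0.667 for CAPS. The PS ratio thus came closest to 1 where variant-like cytosines were left out. The ratio of called shares, 0.508, was 0.481 at 10 reads, 0.533 without variant-like cytosines, 0.518 without high-coverage cytosines and 0.429 for deserts of 1 Mb. Between protein-coding genes it was 0.538, and in the 80% covered bins without both kinds of cytosine 0.553. At equal coverage, and without matching on CpG number, it was 0.382. The 67 low bins became 15 at a TAPSβ level under 20%, 268 under 40%, 18 in deserts of 1 Mb, 189 between protein-coding genes and 31 with 80% covered. No paired analysis was possible because each method has 1 library.

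Depth limits single bins and cytosines most. A desert bin had a median of 851 CAPS calls, and where a desert had few usable bins its level rests on them alone.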
